A study of Homo sapiens with 12 samples.

Results

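The places where TRMT10A was crosslinked to RNA in HEK293T cells, a human embryonic kidney line, are described here gene by gene. They are all 5650 distinct sites of the deposited TRMT10A list, taken as every line reduced to its chromosome, start, end and strand. The whole series holds 17252 listed regions, of which 9579 are FTO clusters and 2023 are differential m6A peaks. The TRMT10A sites come from a pool of 3 CLIP-seq libraries of cells that overexpressed TRMT10A. The FTO clusters come from 1 library of cells that overexpressed FTO. The m6A peaks compare cells given TRMT10A siRNA (siTRMT10A) with cells given control siRNA (siCtrl), with 2 m6A libraries and 2 input libraries for each. In CLIP-seq, ultraviolet light links a protein to the RNA it touches, and the linked RNA is recovered and sequenced. Here RNase T1 trimmed the RNA and anti-Flag beads recovered the protein, so the sites are those of an overexpressed protein. No untagged or input CLIP library was analysed here, and the pooled list gives no value for single libraries, so depth per library and spread between replicates are unknown.

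TRMT10A is a methyltransferase that adds a methyl group to guanine in the body of certain tRNAs. FTO and ALKBH5 are demethylases that remove the N6-methyladenosine mark, m6A, from RNA, and FTO and TRMT10A are the proteins studied in this series. An mRNA can be held by a protein in its coding exons or in the untranslated regions (UTRs) on either side, and a site's place is read from the annotated transcript. A gene with much RNA in the cell offers more material to crosslink than a gene with little.

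Each site has a height, which is the number of sequenced tags stacked at its summit in the pool. Heights ran from 16 to 125 with a median of 20, and 879 sites stood at the lowest value of 16. The middle 50% of sites lay between 17 and 25, and 95% were at or below 45. Sites were narrow, with a median width of 3 bases, and 93.4% spanned 10 bases or fewer. The list also gives the height expected in each gene, which was the same for all sites of a gene in 2755 of 2755 genes. A ratio of height to expected height therefore orders the sites of 1 gene as the height does, and differs only between genes. Across the bound protein-coding genes the expected height fell with the length of the gene's span (Spearman rho = -0.80 over 2303 genes, as a description).

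RefSeq sequence of the GRCh38.p14 build was at hand only around gene starts, where 26 narrow sites could be read on the strand of the site. The set below shows 9 of them at heights of 22 or more, with the site's bases in capitals and up to 12 bases on either side, so that the called positions can be seen in their sequence. Sites in MROH8 (height 27), PFDN5 (24) and CFAP298-TCP10L (22) are not shown. The first is in PKM, the pyruvate kinase of glycolysis, 32 bases from the annotated start of the transcript.
PKM, chr15:72231147-72231171, minus strand: cgtggctccggaTctcttcgtcttt
NPM1, chr5:171387872-171387898, plus strand: tgcgcggttgttCTCTGGAGCAgcgtt
H4C16, chr12:14770885-14770907, minus strand: aaagtctTCCTggagaacgtgat
TCF4, chr18:55588153-55588180, minus strand: tggcggcggcggCGGCggcggcggggag
HSP90AB1, chr6:44247119-44247148, plus strand: gcagtgttgggaCTGTCTGGgtatcggaaa
QARS1, chr3:49104708-49104730, minus strand: gcggctctagacTCCCTgtcgct
SCD, chr10:100347261-100347282, plus strand: tggcagcggataAAAgggggct
ERO1A, chr14:52695511-52695537, minus strand: gaccgagcgtgcGGActggcctcccaa
PEBP1, chr12:118136136-118136160, plus strand: tctccgcgtcgcCtctgtcgcccgc

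These sites had heights of 32 at PKM, 31 at the nucleolar chaperone gene NPM1 and 30 at the histone gene H4C16. The others shown were at 27 in TCF4 (a transcription factor), 23 in HSP90AB1, QARS1 and SCD, and 22 in ERO1A and PEBP1. No motif was searched in so few sites. Over the 21 narrow sites that lay within the first 50 transcribed bases of their own gene, G made up 32.4% of the bases of the sites themselves and 39.3% once 10 bases on either side were added. In the first 50 transcribed bases of all 22199 protein-coding entries of the sequence table the G share was 33.5%. RNase T1, used to trim the RNA, cuts after G, and its part in the sequences next to the sites was not tested.

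Binding was spread thinly over many mRNAs and densely over few. Protein-coding genes with at least 1 site numbered 2303 of 20056, a background share of 11.5%, and held 5107 sites. Of these genes 1282 had a single site and 1021 had 2 or more, which is 5.09% of all protein-coding genes. At the other end 251 genes had 5 or more sites, which is 1.25% of all protein-coding genes, and these held 1855 sites or 36.3% of those in protein-coding genes (95% Wilson interval 35.0 to 37.7%, counting error only). Only 40 genes reached 10 or more sites. These counts leave out sites in structural RNA, described further down, which are not counted for the gene around them.

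**Figure D1:**
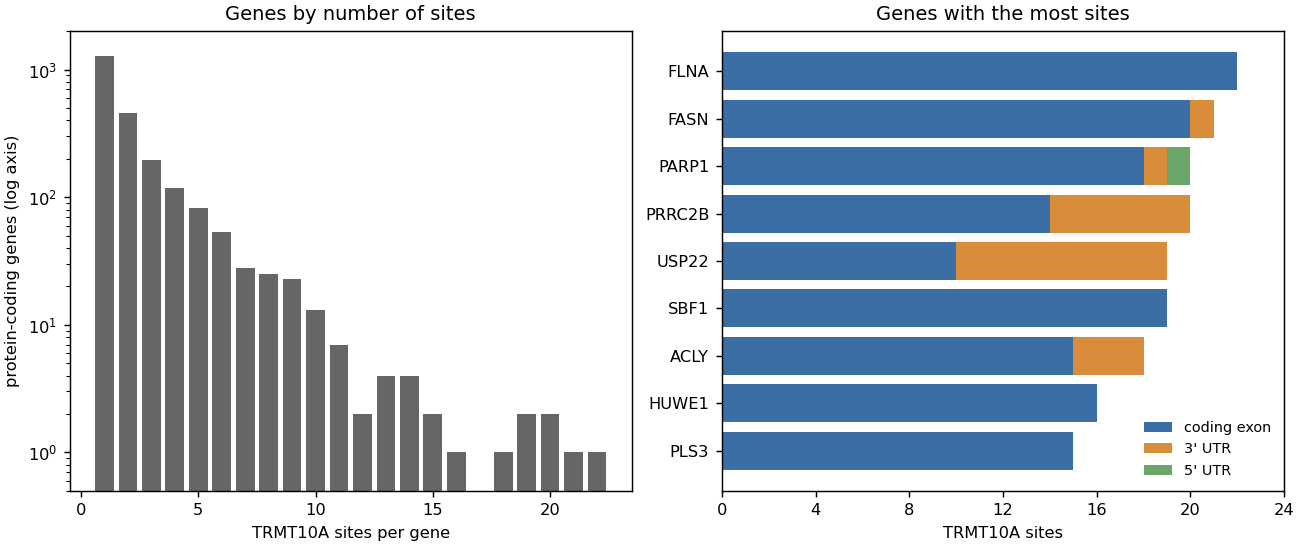
Left, the number of protein-coding genes (log axis) with each number of TRMT10A sites per gene; right, the 9 protein-coding genes with the most sites, each bar split by where the sites lie. FLNA stands first with 22 sites, and the counts of genes drop from 1282 with 1 site to 40 with 10 or more.

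FLNA, an actin crosslinker, had 22 sites with heights of 16 to 32. FASN, the fatty acid synthase, had 21 sites of 19 to 48. PARP1, which attaches ADP-ribose to proteins at DNA breaks, had 20 sites of 16 to 48. PRRC2B, an RNA-binding protein, also had 20 sites, and they reached 31. The next were USP22, a histone deubiquitinase, and SBF1, a pseudophosphatase, with 19 sites each and highest sites of 53 and 35. ACLY, which makes the acetyl-CoA used by FASN, had 18 sites of up to 37. HUWE1, a ubiquitin ligase, had 16 sites of up to 35. PLS3, an actin bundler, had 15 sites of up to 40. ALKBH5, the m6A demethylase, and SRRM2, a large spliceosomal scaffold, followed with 14 sites each and a highest site of 39 in both. Many sites thus did not mean very high sites, since none of these genes reached a height of 55.

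In coding sequence, nearly every bound exon carried exactly 1 site. Of 3305 coding exons with a site, 3170 had 1 (95.9%, Wilson interval 95.2 to 96.5%), 106 had 2 and 29 had 3 or more. For inner exons the share with exactly 1 was 97.1%, and for first and last exons of transcripts with at least 3 exons it was 93.0%. PARP1 shows the pattern, with its 20 sites spread over 19 of 23 exons. FLNA had 22 sites in 20 of 47 exons, FASN 21 sites in 20 of 43 exons and SBF1 19 sites in 18 of 41 exons. In 117 of the 251 genes with 5 or more sites, every site on the main annotated transcript lay in an exon of its own. Median exon number was 8 for genes with 1 site, 9 for genes with 2 to 4 sites and 13 for genes with 5 or more. The sources used here do not say whether peaks were sought exon by exon, and the part of the peak caller in this spacing was not tested.

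A few coding exons held many sites. SRRM2 carried 11 of its 14 sites in exon 11 of 15, with heights of 17 to 39. The zinc finger gene ZNF358 had 6 sites in exon 2 of 2. FOXC1 and ZIC2, transcription factors of development, had 5 each in their first exon, as did a few other genes in 1 exon. 3' UTRs held more than 1 site more often than coding exons did. Of 532 bound 3' UTR exons, 387 had exactly 1 site (72.7%, Wilson interval 68.8 to 76.4%), 58 had 3 or more, and the most were 9. Exon length was not used in these counts, and its part in the difference was not tested. Neighbouring sites of a gene lay a median of 1305 bases apart in the genome, introns included, and 4 of 2843 neighbouring pairs were within 50 bases.

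**Figure D2:**
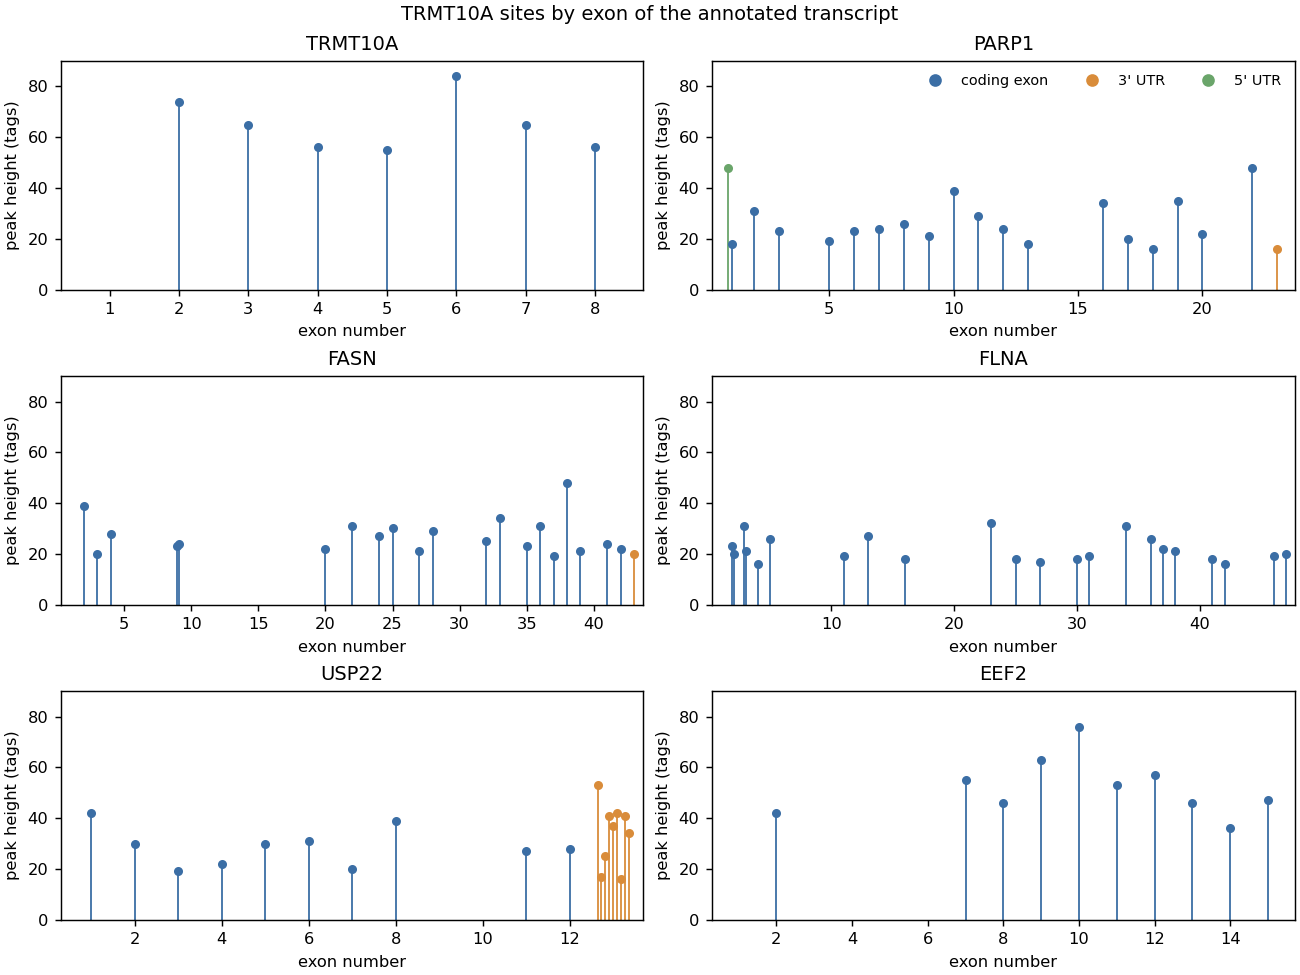
Peak height in tags against the exon number of the annotated transcript for 6 genes, with 1 stem per TRMT10A site coloured by its place; sites of 1 exon stand side by side in 5' to 3' order. TRMT10A has 1 site in each of exons 2 to 8 at 55 to 84, while 9 of the 19 sites of USP22 share its last exon.

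The transcript of the overexpressed protein itself was among the highest. TRMT10A, on chromosome 4, had 7 sites, and each lay in a different exon from 2 to 8 of 8. Along the transcript the heights were 74, 65, 56, 55, 84, 65 and 56. All 7 were in coding sequence, none was in a UTR, and its lowest site was higher than the highest site of each gene named above for its many sites. Only 3 protein-coding genes had a higher highest site than TRMT10A, although 88 genes had more sites. The level of the overexpressed transcript was not measured here, and its part in these heights was not tested. The FTO transcript had no TRMT10A site.

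Height and number of sites gave different rankings. RACK1, a ribosomal scaffold, had the highest exonic site, 95 in exon 5 of 8 (chromosome 5, position 181239113), with its other sites at 67, 39 and 26. The histone gene H3C2 had a single site of 84, and H1-2, a linker histone, a single site of 74. ACTB and ACTG1, the cytoplasmic actins, peaked at 82 and 80, both in exon 4 of 6. RPS23, a small-subunit ribosomal protein, had sites of 81 and 53. EEF2, the translocase of elongation, had 10 sites of 36 to 76, the highest in exon 10 of 15. PKM reached 70 in exon 11 of 12, and the histone variant gene H2AZ1 reached 69. MTRNR2L2, a nuclear copy of mitochondrial ribosomal RNA, had sites of 76, 74, 44 and 36. PLCG2, a phospholipase, stood apart with sites of 87 and 51 in the last exon of 33, both in the 3' UTR.

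Across the 2303 bound protein-coding genes, the number of sites and the highest height rose together only in part (Spearman rho = 0.53, a description across genes that share the same libraries). Genes with a single site had a median height of 18 (quartiles 17 and 22). Genes with 2 to 4 sites had a median highest site of 22 (quartiles 19.2 and 27), and genes with 5 or more had 31 (quartiles 25 and 39). The more sites a gene has, the more draws its highest height is taken from, so some rise is built in. Of the 1282 genes with a single site, 10 nevertheless reached 55 or more, the lowest height seen in TRMT10A.

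Ranked by height over expected height, the list was led by very long genes of which little was bound. RELN, which encodes a large extracellular matrix protein, had 1 site of 27 against an expected height of 0.01, a ratio of 2700.0. TENM1, which encodes a large neuronal surface protein, had 1 site of 24 at the same expected height, a ratio of 2400.0. PLCG2 (ratio 2175.0), GBE1 (1800.0) and OXR1 (1600.0) were also among the largest ratios, with GBE1 and OXR1 at heights of 18 and 16. At the other end H3C2, at a height of 84, had a ratio of 4.1, since its expected height was 20.39. Expected height is printed with a smallest step of 0.01, so ratios at that value are coarse.

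Where in the mRNA the sites lay varied between the most bound genes. Over the whole list 3503 sites (62.0%) lay in coding exons, 788 (13.9%) in 3' UTRs and 194 (3.43%) in 5' UTRs. A further 358 (6.34%) were annotated to exons of noncoding transcripts. Some of these belong to protein-coding genes, such as all 8 sites of SFPQ and all 8 of PPP2R1A. The coding exon and UTR counts may therefore be too low. A coding exon site was present in 1608 of the 2303 genes, a 3' UTR site in 530, and both in 272. FLNA, SBF1, HUWE1, PLS3 and SRRM2 had coding exon sites only. USP22 had 9 of 19 sites in its 3' UTR, with heights of 16 to 53. In 19 of the 251 genes with 5 or more sites, over 50% of the sites were in the 3' UTR. SLC7A5, an amino acid transporter, had 7 of 8 there, and CBX6, a Polycomb protein, 6 of 6. LMNB2, a nuclear lamin, had 6 of 9. IGF2BP1, an mRNA-binding protein that reads m6A, had 5 of 8.

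ALKBH5 had sites in its 5' UTR, coding sequence and 3' UTR. Its 14 sites began with 3 annotated to the 5' UTR at heights of 21, 27 and 29. The first of these lay before the RefSeq start of ALKBH5, at positions -80 to -78. Its coding exons had 6 sites at 24, 27, 38, 39, 21 and 35, and the 3' UTR had 5 at 24, 21, 17, 33 and 18. The first 4 of the coding sites shared exon 1, and exon 2 of 4 had none. The highest sites, at 38 and 39, stood in the coding part of exon 1.

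Gene families differed widely in the share of members with a site, against 11.5% over all protein-coding genes and 15.5% for FTO clusters. Of the 28 families examined, 26 had a higher share than all protein-coding genes for TRMT10A, and 27 had one for FTO clusters. The families were chosen with earlier results of these data known, so these counts are a description and not a test. Among bound protein-coding genes the median highest site was 21. Transcript abundance was not measured in these files, and its part in the family shares was not tested.

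Glycolysis gave the highest share. Of 17 glycolytic enzyme genes 14 had a site (82.4%, against 76.5% with an FTO cluster), and their median highest site was 37.5. PKM had 11 sites of 25 to 70, ENO1 (enolase) 9 of 21 to 60, and LDHB and GAPDH 7 each with highest sites of 66 and 61. Of 41 genes of fatty acid and sterol synthesis, 12 had a site (29.3%, against 56.1% with an FTO cluster). These 12 had a median of 3.5 sites, and 6 of them had 5 or more. After FASN and ACLY came SCD, which desaturates fatty acids, and SREBF2, the transcription factor of sterol synthesis, with 9 sites each. Nuclear-encoded oxidative phosphorylation subunits had a site in 45 of 87 genes (51.7%), with a median highest site of 21. ATP5F1A, a subunit of the ATP synthase, had 7 sites of 18 to 33. Among ATF4 stress response and serine synthesis genes, 12 of 24 had a site, and PHGDH, the entry enzyme of serine synthesis, had 10 coding exon sites of up to 45.

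Genes of protein synthesis differed in height by group. Large ribosomal subunit proteins had a site in 34 of 54 genes (63.0%) with a median highest site of 33.5, and small subunit proteins with RACK1 in 19 of 36 (52.8%) with a median of 43. FTO clusters were found in 83.3% and 86.1% of the same lists. RPLP0, of the ribosomal stalk, had 6 sites of 22 to 49, 1 in each of exons 3 to 8. RPS4X had 6 of 29 to 57, and RPL18 had 5 of 18 to 64. Elongation and release factors had a site in 6 of 10 genes, with a median highest site of 44. EEF1A2, which delivers aminoacyl-tRNA to the ribosome, had 9 sites of up to 42, though it has a close relative in EEF1A1. Initiation factors had a site in 29 of 58 genes and lower heights, with a median of 22. EIF4G1, the scaffold of the cap-binding complex, led them with 10 sites of up to 36, and EIF3B had 9 of up to 44.

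Enzymes that act on tRNA were examined next. Aminoacyl-tRNA synthetases, which charge tRNA with amino acids, had a site in 13 of 22 genes (59.1%), with a median highest site of 21, the same as over all bound protein-coding genes. AARS1, for alanine, had 9 sites of up to 28, and YARS1, for tyrosine, had 7 of up to 29. tRNA modification enzymes had a site in 10 of 62 genes (16.1%), a share near the 11.5% of all protein-coding genes. One of the 10 is TRMT10A itself. DUS1L, a dihydrouridine synthase, had 3 sites of up to 27, the mitochondrial GTPase gene GTPBP3 had 2 and TRMT1 had 1 of 21.

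RNA-binding proteins and the m6A machinery followed. Of hnRNP and SR splicing factors, 32 of 45 genes had a site (71.1%, against 82.2% with an FTO cluster), with a median highest site of 29. HNRNPU, a nuclear matrix protein, had 9 sites of 24 to 67, and HNRNPL and HNRNPK had 9 each of up to 38 and 31. Core spliceosome proteins had a site in 21 of 45 genes, led by SF3B3 with 14 of up to 34. DEAD- and DEAH-box helicases had a site in 17 of 57 genes, and DDX17, a cofactor of splicing and transcription, had 13 of 16 to 47. Of the PRRC2 and RNA granule genes 13 of 23 had a site, and LARP1, which binds mRNAs of ribosomal proteins, had 11 of up to 24 after PRRC2B. Of the m6A writers, erasers and readers, 11 of 23 had a site (47.8%, against 73.9% with an FTO cluster). After ALKBH5 came HNRNPA2B1 and IGF2BP1, with 8 sites each and a highest site of 47 in both, and HNRNPC with 5 of up to 39.

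**Figure D3:**
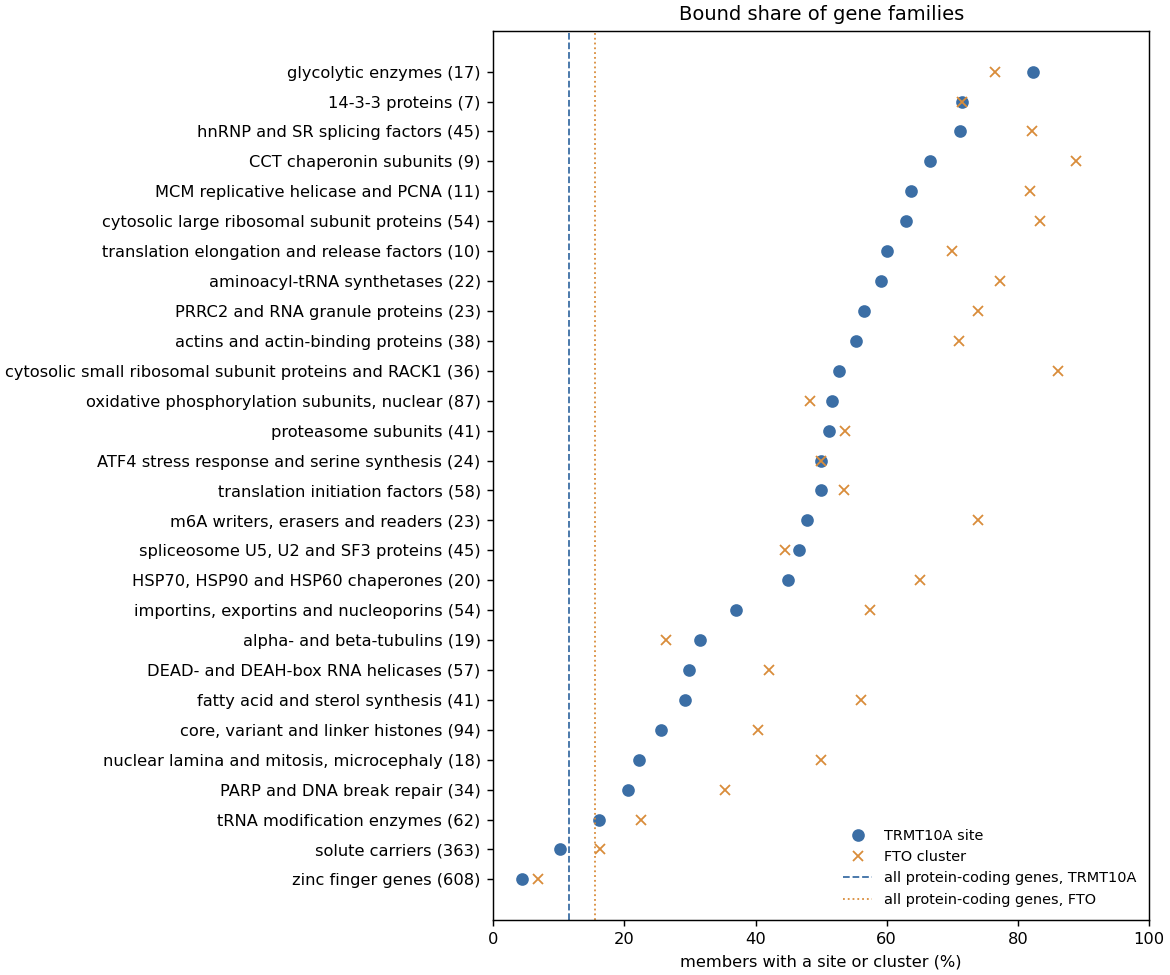
Share of the members of each gene family with at least 1 TRMT10A site (filled circles) and with at least 1 FTO cluster (crosses), with the number of members in brackets and the shares over all protein-coding genes as vertical lines (dashed, TRMT10A, 11.5%; dotted, FTO, 15.5%). Glycolytic enzymes stand highest for TRMT10A at 82.4%, and zinc finger genes lowest at 4.44%.

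Chaperones and the cytoskeleton came next. The cytosolic chaperonin had a site in 6 of 9 subunit genes, with a median highest site of 33, and CCT5 reached 50. HSP70, HSP90 and HSP60 chaperones had a site in 9 of 20 genes. HSP90AA1 had 13 sites of 19 to 51 and HSP90AB1 had 8 of 18 to 52. Actins and actin-binding proteins had a site in 21 of 38 genes, with ACTB at 8 sites of 19 to 82 and TLN1, which ties integrins to actin, at 10 of no more than 22. Alpha- and beta-tubulins had a site in 6 of 19 genes, with a median highest site of 41. TUBA1A, TUBA1B and TUBA1C had 6, 5 and 5 sites, with highest sites of 41, 58 and 50. Actins, tubulins, histones and ribosomal protein genes have near-identical copies, and beyond the word unique in the header the sources used here do not say how tags that match several copies were placed.

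Replication, nuclear transport and other families were also examined. The MCM replicative helicase with PCNA had a site in 7 of 11 genes, and MCM2, MCM7, MCM3 and MCM4 had 8 or 9 sites each with highest sites of 25 to 36. Importins, exportins and nucleoporins had a site in 20 of 54 genes, with 10 sites in KPNB1 and in NUP210. Proteasome subunits had a site in 21 of 41 genes but none with 5 or more, and PSMB5 was highest at 38. Genes of PARP and DNA break repair had a site in 7 of 34, where PARP1 and the DNA repair kinase gene PRKDC (10 sites) held most. Histones had a site in 24 of 94 genes, mostly 1 per gene, with a median highest site of 35. Of the nuclear lamina and mitosis genes 4 of 18 had a site. 14-3-3 proteins had a site in 5 of 7 genes, YWHAG leading with 6 of no more than 19.

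Membrane transporters and zinc finger factors were near or under the background. Solute carriers had a site in 37 of 363 genes (10.2%, against 16.3% with an FTO cluster), with 8 sites each in SLC4A2, SLC25A39 and SLC7A5. Zinc finger genes had a site in 27 of 608 (4.44%, against 6.74% with an FTO cluster). ZNF503 had 7 sites of up to 37, and ZNF358 had 6 of up to 31.

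Sites in structural RNA stood above those in mRNA in height. They numbered 425 (7.52% of all sites), with a median height of 32, while the other 5225 sites had a median of 19. Of the 179 sites of 55 or more, 117 were in structural RNA and 48 in coding exons. The 45S ribosomal RNA array on chromosome 21 held 47 sites with a median height of 112. Small nuclear RNAs of the spliceosome and related RNAs had 40 sites with a median of 33, and 7SK, which holds back transcription elongation, had 30 with a median of 28. 7SL, the RNA of the signal recognition particle, had 75 with a median of 25, and Y RNAs had 18 with a median of 24.5. SNORD3A and SNORA58, both small nucleolar RNAs, had 1 site each, of 114 and 49.

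**Figure D4:**
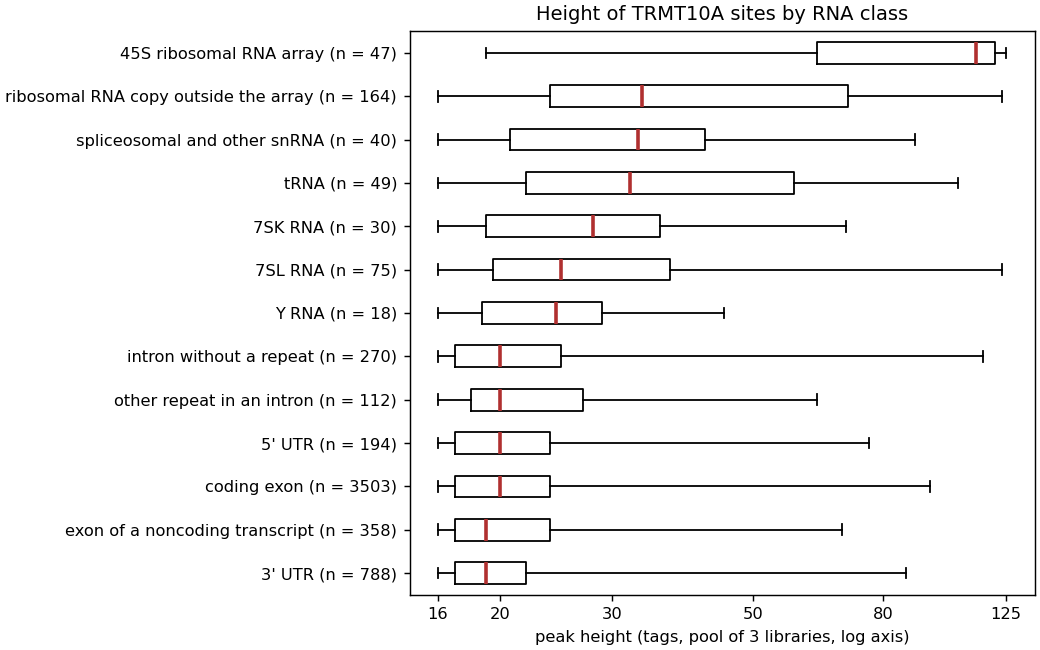
Peak height of TRMT10A sites (log axis, tags in the pool of 3 libraries) by RNA class; boxes span the quartiles, red lines mark medians and whiskers reach the lowest and highest site, and the 2 small nucleolar RNA sites are not drawn. Structural RNA classes have medians of 24.5 to 112, and the mRNA and other intron classes 19 or 20.

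Most high sites listed under introns of other genes lay in structural RNA or its copies. Of 751 intronic sites outside the 45S array, 369 (49.1%, Wilson interval 45.6 to 52.7%) lay in structural RNA genes or in repeats that the deposited annotation names as ribosomal RNA, tRNA, 7SL, 7SK, Y RNA or small nuclear RNA. Of the 80 intronic sites of 55 or more, 73 did. The site of 123 in GREB1 (chromosome 2, position 11584859) is in a copy named 7SL. The sites of 123 in SLCO5A1, 121 in PID1 and HFM1, 120 in RYR2 and 118 in AAMDC are in copies of the large ribosomal RNA. Those of 120 in PDE3A and 119 in ANKRD30BL are in copies of the small ribosomal RNA, and those of 120 in MED12L, 115 in COL22A1 and 110 in EDA in copies of 5S ribosomal RNA. By family there were 98 sites in 5S copies, 46 in large and 20 in small ribosomal RNA copies, with 13 in U6, 11 in U1 and 10 in U2. The annotation names repeats in introns alone, so copies inside exons are not counted.

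Introns without any named repeat held 270 sites at a median of 20. The highest was 115 in KIAA0825 (chromosome 5, from 94569484 to 94569486). ANKRD52 followed with 64 and 62 in its introns. A further 112 intronic sites lay in other repeats.

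tRNA, the known substrate of the enzyme, had 49 sites, 22 of them in 21 annotated tRNA genes and 27 in tRNA-like copies. Median height was 58 in the genes and 24 in the copies. Counted from the 5' end along the strand of the site, 12 of the 22 lay wholly between positions 22 and 32, a range picked after the positions were seen. The pair of histidine tRNA genes with heights of 105 and 103, TRH-GTG1-7 and TRH-GTG1-8, had theirs at positions 23 to 25 and 24 to 25. None of the 22 covered position 9, the residue that TRMT10A methylates, and the first began at 14. Of the other tRNA genes, TRG-CCC6-1 (height 77), TRP-CGG1-3 (74), TRG-GCC3-1 and TRG-GCC2-4 (70 each) and TRC-GCA19-1 (59) had sites in that range. TRR-CCT1-1 (66), TRE-TTC4-1 and TRU-TCA2-1 (63 each) had sites further on, at positions 48, 54 to 55 and 40 to 41. Glutamine tRNA had no site in an annotated gene and 4 in copies, with heights of 16 to 23. Listed sites are annotated to exons, UTRs, introns or noncoding transcripts, and none to the stretches between genes. tRNA genes lying between other genes, or with tags that match several copies, may therefore be missing from the list. A tRNA without a listed site cannot be read as unbound.

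Of RNAs not classed as coding, MALAT1, a nuclear long noncoding RNA, had 7 sites at heights of 36, 18, 26, 23, 18, 27 and 18. DISC1FP1 had 6 intronic sites of up to 44, and MTRNR2L1, a relative of MTRNR2L2, had 6 of 22 to 34. MTRNR2L2 and XIST had 4 each, those of XIST at 17 to 25. As a check of the cell type, 1 of 6 genes listed for HEK293T other than the overexpressed TRMT10A had a site, namely VIM, and the neurofilament genes had none. VIM, an intermediate filament, had 6 sites of 27 to 69. Of 5 blood, 3 liver and 3 skin markers none had a site, and of 3 muscle markers ACTA1, an actin close in sequence to ACTB, had 1 of 18.

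Genes with more TRMT10A sites more often had an FTO cluster, and had more of them. An FTO cluster was present in 561 of 1282 genes with 1 site (43.8%), in 545 of 770 with 2 to 4 (70.8%) and in 224 of 251 with 5 or more (89.2%). Over all protein-coding genes the share was 15.5%. The median number of FTO clusters was 0, 1 and 5 in the same order. Over the 1330 genes with both, sites and clusters had a Spearman rho of 0.40, given as a description of genes whose abundance was not measured. The 2 counts differed widely in single genes. FASN had 21 TRMT10A sites and 5 FTO clusters, SBF1 had 19 and 6, and FLNA had 22 and 13. MYH9, a myosin, had 7 TRMT10A sites and 40 FTO clusters, and SCD had 9 and 37. MALAT1, a noncoding RNA and so not among the 1330 genes, had 7 and 80. No FTO cluster was listed in 27 of the 251 genes. Among these EEF1A2 had 9 TRMT10A sites, and SMPD4, SLC25A39, RECQL4 and DHX30 had 8 each.

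**Figure D5:**
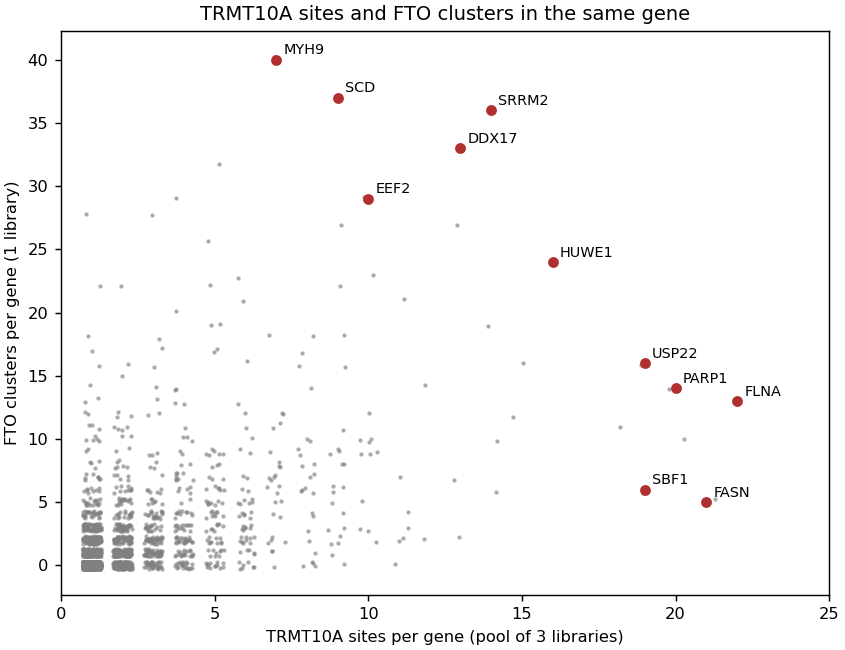
TRMT10A sites per gene (x axis, pool of 3 libraries) against FTO clusters per gene (y axis, 1 library) for the 2303 bound protein-coding genes, with points shifted slightly at random so that they do not hide each other and 11 genes marked in red. FASN and SBF1 lie low on the right with 5 and 6 clusters, and MYH9 lies high with 40 clusters at 7 sites.

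Differential m6A peaks were also more frequent in genes with more sites, and mostly for peaks with positive values. In the authors' deposited table, 8.56% of all protein-coding genes had a differential peak, 5.48% had only positive peaks and 2.84% only negative peaks. By the authors' deposited table, only positive peaks were found in 186 of 1282 genes with 1 site (14.5%, Wilson interval 12.7 to 16.5%), 151 of 770 genes with 2 to 4 (19.6%, 17.0 to 22.6%) and 68 of 251 genes with 5 or more (27.1%, 22.0 to 32.9%). Only negative peaks in the authors' deposited table were found in 73 of 1282 (5.69%), 44 of 770 (5.71%) and 16 of 251 (6.37%), in the same order. No header says which siRNA stands on top of the ratio, so the sign cannot be read as a gain or a loss in the knockdown. The part of transcript abundance in this trend was not tested.

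Among genes with 5 or more sites, the largest positive value in the authors' deposited table was a log2 fold change of 2.23 at ALKBH5, which had a further peak of 0.88. In the authors' deposited table LMNA, a nuclear lamin with 5 sites, had 1.76, TRMT10A had 1.48 and HNRNPU had 1.46. The TRMT10A transcript is itself the target of the siRNA in this comparison, and the part of the knockdown in its value was not tested. The most negative value in the authors' deposited table was -1.12 at DDX17, which had 13 sites. TSPYL1, with 5 sites, had -0.74 in the authors' deposited table, and CTNNB1, the beta-catenin gene with 10 sites, had -0.63. ADAR, the RNA-editing deaminase with 7 sites, had peaks of both signs in the authors' deposited table, -0.57 and 0.21. Of the 40 genes with 10 or more sites, 20 had a differential peak in the authors' deposited table, against 8.56% of all protein-coding genes. FASN, PARP1, PRRC2B, USP22 and SBF1 had none, whereas in the authors' deposited table FLNA had 0.95, HUWE1 0.55 and SRRM2 0.28 and -0.42.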

How the data were processed

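The TRMT10A sites were deposited as 1 list, which per the file headers was annotated with HOMER's annotatePeaks on hg38 from significant peaks of unique tags of the pooled libraries. The height of a site is the authors' signal, a tag height that is also written in the peak's name beside the expected height of the gene and a p-value (at most 0.0494). The sources used here do not name the peak caller. The FTO list gives conversion events as counts per cluster, as deposited by the authors, and 2 of its genes list fewer clusters than they state. The m6A table holds the authors' deposited log2 fold changes, and the submitters' processing notes name DESeq2.

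The 6571 lines were reduced to 5650 distinct sites. A site was given to the gene in its peak name whose span holds it (98.8% of sites), otherwise to the gene of its annotated transcript, with symbols and spans of the RefSeq GRCh38.p14 table. Gene identifiers of 6566 lines matched. Sites in structural RNA genes, or in intronic repeats annotated as copies of them, were counted for that RNA and not for the host. Exon numbers are those of the annotated transcript. HOMER's annotation does not ask for the strand, so an antisense transcript can lend a site its class. Shares have 95% Wilson intervals, which cover counting error only. Tag reads carry no stated molecular identifiers, and depth per library is unknown. No test between conditions was possible on a pooled list. The assignment was run on simulated sites, each placed inside the span of the only gene in its peak name. Sites with several named genes, or outside the span of the named gene, were not simulated. Base content was described only near gene starts, since no genome was used.

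By rule the text names the 12 protein-coding genes with the most sites, the 12 with the highest exonic site, the 8 with the largest ratio to expected height, noncoding RNAs, tRNA genes, up to 4 members of each family and the 4 genes with 5 or more sites with the largest positive and negative m6A value. Genes in the paragraphs on exons, on 3' UTRs and on FTO clusters were chosen after their values were seen. Some genes that the rule picks are not reported here. The members and lists were chosen with earlier results of these data known. Computation used Python 3.11.15, pandas 2.3.3 and scipy 1.17.1.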

Additional observations from a re-analysis of the deposited data

How the results depend on the processing

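Counting all lines gave 6571 sites and merging sites of a gene within 50 bases gave 5646, against 5650. Keeping only heights at or above the median left 1320 genes with a site in place of 2303 and 102 genes with 5 or more sites in place of 251, and the share of protein-coding genes with a site was 6.58% in place of 11.5%. Asking for 2 or more sites gave 5.09%. The median of structural RNA sites over that of other sites was 1.68 by height and 11.2 by height over expected height, and the cause was not tested. The other alternatives, namely p at most 0.01, introns left out, the annotated transcript's gene, the 45S array left out, genes with 2 or more sites and FTO clusters with more conversion events, moved no count by over 1.5 times and turned no direction. Counting structural RNA sites for their host genes, chosen after seeing the data, gave 2516 genes. No paired analysis was possible because the TRMT10A list pools its libraries. For the same reason no replicate could be left out, so every value here lacks replicate error. Sites below a height of 16 are not listed, so a gene without a site may hold contacts under that height.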
